A study of Mus musculus with 4 samples.

Results

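The genes described here make, interconvert and move lactate, and they are Ldha, Ldhb, Slc16a1, Slc16a3, Bsg, Pdk1, Pdha1 and Pdhb. They were chosen by gene symbol as a pathway, and all 8 were found among the 21981 genes of the deposited tables. RNA was sequenced from cells labelled microglia, the resident macrophages of the brain, taken from the cerebral cortex of untreated mouse embryos at embryonic day 16. The libraries cKO 2 and cKO 5 carried the genotype label Bach1 cKO, a conditional knockout whose name carries the suffix Cx3 in the design text, and the libraries control 1 and control 6 carried the label Bach1 fl/fl, the floxed allele without a named deletion. The design text mentions triplicates, and 2 libraries of each genotype were analysed here. The promoter of the recombinase, whether the controls carried it, how the cells were isolated and whether each library came from 1 animal or a pool are not stated in the labels, so each test measures only the spread between these 4 samples. BACH1 is a heme-binding transcriptional repressor, and the title of the series connects it with microglial metabolism and the formation of astrocytes.

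Pyruvate, the end product of glycolysis, has a pair of main fates in these genes' pathway. Lactate dehydrogenase reduces it to lactate in the cytosol, and the monocarboxylate transporters carry lactate and a proton across the plasma membrane, out of glycolytic cells and into cells that burn it. Alternatively, the pyruvate dehydrogenase complex oxidises pyruvate to acetyl-CoA in mitochondria, and pyruvate dehydrogenase kinases phosphorylate and switch off that complex. Ldha, Slc16a3 and Pdk1 are textbook targets of the hypoxia-inducible factors (HIF), which bind an A- or G-led CGTG core, while BACH1 with a small Maf partner binds antioxidant response elements.

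The promoters are printed because BACH1 and HIF act at known short motifs. Whether these motifs bear on the levels in the libraries was not tested. RefSeq start sites were found for 7 of the 8 genes, in 9 windows of 250 bases before a start site on GRCm38.p6, with a pair of start sites each for Ldha and Pdk1. The windows were searched on both strands for the HIF core in its A form (ACGTG) and in its G form (GCGTG) and for an antioxidant response core (TGACNNNGC, where N is any base). Capitals mark every match to these motifs. Overlapping matches of 1 motif on opposite strands were counted as 1 site.
Ldha promoter, chr7:46845554-46845803, plus strand: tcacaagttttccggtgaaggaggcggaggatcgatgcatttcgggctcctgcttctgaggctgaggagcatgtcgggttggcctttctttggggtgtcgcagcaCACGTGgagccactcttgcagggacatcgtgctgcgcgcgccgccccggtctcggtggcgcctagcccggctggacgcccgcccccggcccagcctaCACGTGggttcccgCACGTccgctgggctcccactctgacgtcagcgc
Slc16a3 promoter, chr11:120948817-120949066, plus strand: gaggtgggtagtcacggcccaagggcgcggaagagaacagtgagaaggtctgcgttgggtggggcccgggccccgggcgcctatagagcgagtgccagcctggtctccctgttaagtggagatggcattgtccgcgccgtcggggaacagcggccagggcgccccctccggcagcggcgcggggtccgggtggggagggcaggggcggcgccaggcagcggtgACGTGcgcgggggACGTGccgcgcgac
Pdk1 promoter, chr2:71872974-71873223, plus strand: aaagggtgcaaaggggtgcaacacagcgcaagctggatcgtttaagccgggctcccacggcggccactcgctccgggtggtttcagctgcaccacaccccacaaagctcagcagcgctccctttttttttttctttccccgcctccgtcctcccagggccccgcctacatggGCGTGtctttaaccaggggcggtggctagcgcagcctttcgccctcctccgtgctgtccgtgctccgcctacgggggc
Slc16a1 promoter, chr3:104638414-104638663, plus strand: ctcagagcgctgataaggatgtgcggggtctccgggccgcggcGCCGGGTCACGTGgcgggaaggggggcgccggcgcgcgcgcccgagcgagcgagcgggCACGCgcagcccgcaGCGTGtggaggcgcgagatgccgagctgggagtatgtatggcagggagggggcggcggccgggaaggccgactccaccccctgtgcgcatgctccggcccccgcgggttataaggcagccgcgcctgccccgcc
Ldhb promoter, chr6:142507958-142508207, minus strand: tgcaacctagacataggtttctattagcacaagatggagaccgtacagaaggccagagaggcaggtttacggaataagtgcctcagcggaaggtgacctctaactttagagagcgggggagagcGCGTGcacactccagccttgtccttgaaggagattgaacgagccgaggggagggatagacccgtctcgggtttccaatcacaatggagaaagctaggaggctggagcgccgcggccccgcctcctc
The first Ldha window held 3 separate A-form HIF cores, starting 145, 48 and 34 bases before the start site, and Slc16a3 held 2, starting 27 and 14 bases before it. The Slc16a1 window held 1 A-form and 2 G-form HIF cores. Its A-form core overlapped a match to the antioxidant response core, the single match to that motif in the 9 windows. The Ldhb window, the first Pdk1 window and the second Ldha window each held 1 G-form core, and the second Pdk1 window held no match. Of the pyruvate dehydrogenase subunits, Pdha1 held 3 G-form cores and Pdhb 1 of each form. Of 32851 RefSeq windows of the same length, 16.6% held the A form of the HIF core at least once, 28.2% the G form and 10.2% the antioxidant response core. The A form was held at 2 or more separate sites by 1.95% of them, and the G form by 8.38%. A match is a description of the letters and not a measured binding site.

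**Figure D1:**
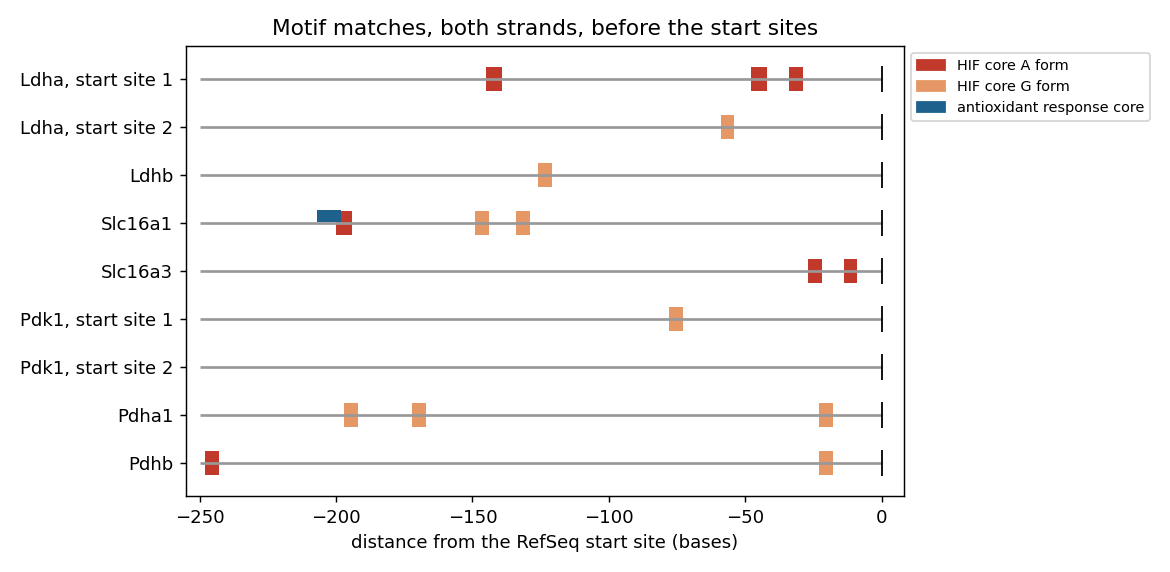
Motif matches in the 250 bases before each RefSeq start site of 7 of the genes (x axis, distance from the start site in bases; rows, start sites; colours, motif). The Ldha start site 1 carries 3 separate red sites and Slc16a3 2, and the blue antioxidant response core appears in Slc16a1 alone among these windows.

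The 4 libraries differed in their RNA of cell type markers. Library totals ran from 17233115 to 19305078 reads, and 3 reads correspond to 0.155 to 0.174 CPM (reads per 1000000 reads of the library), a floor that covers counting error only. All 12 microglia markers had reads in every library, and their sum was 9264 CPM in cKO 2 and 35938 in cKO 5, against 25584 in control 1 and 40658 in control 6. Summed markers of cortical excitatory neurons (10 genes, none at 0) came to 8747 CPM in cKO 2 and 634 in cKO 5, against 2542 in control 1 and 806 in control 6. Summed endothelial markers (9 genes, none at 0) came to 2943 CPM in cKO 2 and 376 in cKO 5, against 3741 in control 1 and 674 in control 6. The neuron sum thus came close to the microglia sum in cKO 2, which stands apart from the other libraries. Sox11 alone supplied 5114 CPM of the neuron sum in cKO 2, and sums of different marker sets do not measure numbers of cells. In bulk RNA fewer cells of a type and less RNA per cell cannot be told apart. Bach1 itself had 29.98 and 35.4 CPM in cKO 2 and cKO 5, against 45.8 and 21.6 in control 1 and control 6. The genotypes overlapped. Which exons the deletion removes is not stated in the labels, and the counts are per gene, so the deletion was not checked here. Xist had reads only in cKO 5 and control 1 and the Y-linked gene Ddx3y only in cKO 2 and control 6, so each genotype pairs 1 library of each kind.

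Across all genes the comparison of genotypes made no call. By edgeR's quasi-likelihood test over 15951 genes, with Benjamini-Hochberg adjustment, 0 (0.0%) passed an adjusted p of 0.05 as higher in cKO and 0 (0.0%) as lower, while 49 had an unadjusted p under 0.05. DESeq2 and limma-voom also gave 0, with 74 and 37 genes at an unadjusted p under 0.05. The spread between libraries of a genotype that edgeR estimated, the biological coefficient of variation, was 0.65. With that spread and 2 libraries of each genotype, 0 calls do not show that the genes were unchanged. All 8 members passed the filter on low counts, 0 were past the threshold in either direction, and 0 had an unadjusted p under 0.05 in edgeR. Their log2 fold changes were negative for 7 and positive for 1, with a median of -0.22 against 0.03 over all genes tested, 47.2% of which were negative. Scaled instead on the microglia markers, all 8 were positive, as was the median of all genes (1.25). The 95% confidence interval of every member's fold change included 1. The exact Poisson interval of a member in a library reached 0.987% to 6.10% of its value to either side.

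**Figure D2:**
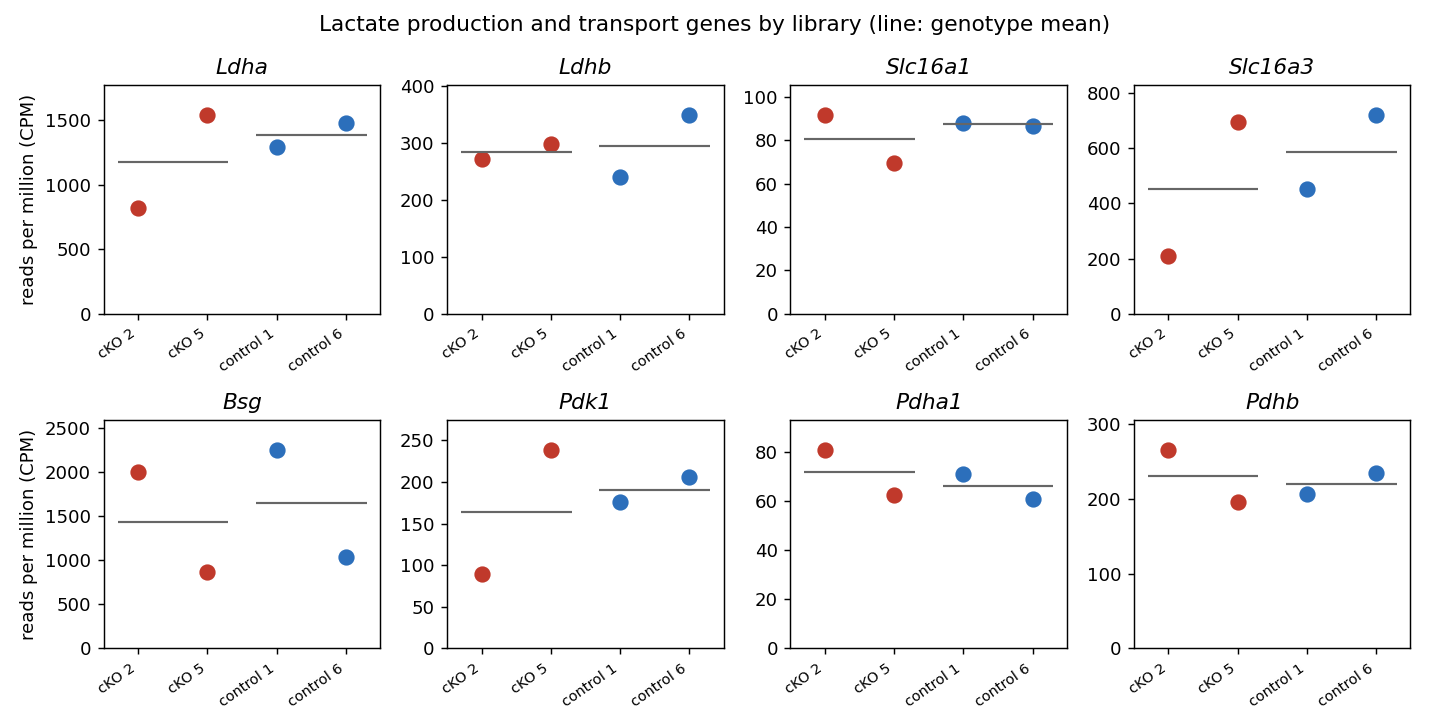
Level of each gene in each library (y axis, CPM from 0; red, cKO; blue, control; line, mean of the 2 libraries of a genotype). In Ldha, Slc16a3 and Pdk1 the cKO 2 point is the lowest, while Bsg is high in cKO 2 and control 1.

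Ldha (ENSMUSG00000063229, chromosome 7, 46841475 to 46855627, plus strand, GRCm38) encodes the muscle-type subunit of lactate dehydrogenase, which favours the step from pyruvate to lactate. It had 818 CPM in cKO 2 (14161 reads) and 1544 in cKO 5 (29810 reads), against 1297 in control 1 (22659 reads) and 1479 in control 6 (25489 reads). The cKO values thus enclosed both control values. The means were 1181 ± 513 CPM in cKO and 1388 ± 129 CPM in control (SD, n = 2 each), a log2 fold change of -0.26 ± 0.62 (SE; edgeR adjusted p = 0.9997, the value of every member). Its 95% interval ran from -1.92 to 1.40, or 0.264-fold to 2.64-fold. Without cKO 2 the log2 fold change was 0.26, so its direction rested on that library. Annotated pseudogenes named Ldha-ps and Ldha-ps2 could take or give reads, and Ldha-ps2 had 22 and 31 reads in cKO 2 and cKO 5, against 24 and 40 reads in control 1 and control 6.

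Ldhb (ENSMUSG00000030246, chromosome 6, 142490249 to 142507957, minus strand) encodes the heart-type subunit, which favours lactate use, and it varied less than Ldha. It had 272 CPM in cKO 2 and 298 in cKO 5, against 239.7 in control 1 and 349.7 in control 6. Here the control values enclosed both cKO values. The means were 285 ± 18.9 CPM in cKO and 295 ± 77.8 CPM in control (SD, n = 2 each), and the log2 fold change was -0.13 ± 0.43 (SE). It was 0.11 without cKO 2 and 0.27 without control 6.

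The balance of the subunits was read within each library, where it does not depend on library scaling. Per kilobase of exon, Ldhb made up 41.2% of the Ldha and Ldhb signal in cKO 2 (95% exact Clopper-Pearson interval 40.4% to 42.0%) and 29.0% in cKO 5 (28.4% to 29.5%). In the controls the share was 28.0% in control 1 (27.4% to 28.7%) and 33.3% in control 6 (32.6% to 33.9%). Intervals cover counting error only and not the choice of length, and the libraries of a genotype differed by more than those intervals. With the longest principal transcript as the length, the ratio of Ldhb to Ldha was 0.450 in cKO 2 and 0.262 in cKO 5. It was 0.250 in control 1 and 0.320 in control 6. These ratios were lower than with the exon length in every library, so the shares depend on the length used. Per kilobase of exon, the mean log2 ratio of Ldhb to Ldha was -0.90 ± 0.55 in cKO and -1.18 ± 0.25 in control (SD, n = 2 each). The difference was 0.28 with a two-sided exact permutation p of 0.667, where 0.333 is the smallest that 2 against 2 libraries allow. Without cKO 2 the difference was -0.11. In all, 4 ratios were tested, and each had a Benjamini-Hochberg adjusted exact permutation p of 1. The remaining lactate dehydrogenases were low. Ldhd, the mitochondrial D-lactate enzyme, had 2.08 and 2.33 CPM in cKO 2 and cKO 5, against 1.26 and 1.10 in control 1 and control 6. The testis enzyme Ldhc had 1 and 2 reads in the cKO libraries and 10 reads in control 1, and was not listed for control 6.

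Slc16a3 (ENSMUSG00000025161, chromosome 11, 120948480 to 120960868, plus strand) encodes MCT4, the low-affinity lactate exporter of glycolytic cells and macrophages, and it had the widest spread of the 8 genes. It had 211 CPM in cKO 2 (3647 reads) and 694 in cKO 5 (13400 reads), against 451 in control 1 (7886 reads) and 722 in control 6 (12438 reads). The highest library was 3.43 times the lowest. Library cKO 2 stood below both controls and cKO 5 between them. The means were 452 ± 342 CPM in cKO and 587 ± 191 CPM in control (SD, n = 2 each), a log2 fold change of -0.38 ± 0.81 (SE) with a 95% interval of -2.57 to 1.80. The log2 fold change was -1.75 without cKO 5, 0.33 without cKO 2 and 0.10 without control 6. In the authors' deposited table, Slc16a3 was called lower in cKO 2 than in control 1 (log2 fold change -1.10) and lower than in control 6 (-1.78), in comparisons of 1 library with 1 library that called 11.6% and 13.4% of all genes lower. For cKO 5 the authors' deposited table made no call, with log2 fold changes of 0.62 and -0.06 over control 1 and control 6.

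Relative to the microglia markers, Slc16a3 varied less than on CPM. Per 1000 CPM of summed microglia markers it had 22.7 and 19.3 CPM in cKO 2 and cKO 5, against 17.6 and 17.8 in control 1 and control 6. Among 7314 genes with a mean of at least 20 CPM, those whose pattern over the 4 libraries was most like it were Ctsb, Gusb and Ctsz, with root mean square differences of 0.014, 0.015 and 0.016 (log2). Each of these encodes a lysosomal enzyme. Ctsb, for example, had 5484 and 17812 CPM in cKO 2 and cKO 5, against 11890.3 and 18628 in control 1 and control 6. With 4 libraries such likeness is a description, and many genes share a pattern.

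Slc16a1 (ENSMUSG00000032902, chromosome 3, 104638668 to 104658462, plus strand) encodes MCT1, the widely expressed transporter that also carries lactate across brain endothelium, and it was among the steadiest of the 8. It had 91.7 CPM in cKO 2 and 69.5 in cKO 5, against 88.0 in control 1 and 86.6 in control 6. The means were 80.6 ± 15.7 CPM in cKO and 87.3 ± 1.02 CPM in control (SD, n = 2 each), and the log2 fold change of -0.21 ± 0.28 (SE) had a 95% interval of -0.98 to 0.56 and was -0.22 without cKO 2. On CPM the cKO values lay on either side of the controls. After division by the TMM factors (scaling factors that even out composition between libraries) both cKO values, 79.9 and 75.5, lay below both control values, 85.2 and 94.4. Slc16a1 was the 1 member with such a separation, 12.5% of members, against 7.64% of all genes tested on the lower side and 8.33% on the higher side, where 0 members fell. On plain CPM it was lowest in cKO 5, where the endothelial marker sum was lowest too, and the part of endothelial RNA in it was not tested. A pair of intronic genes on the same strand, Gm43581 and Gm43585, are annotated inside it and share no exon with it. Genes most like it in pattern were Txndc12, Zfp950 and Oard1 (root mean square differences 0.014, 0.021 and 0.021, log2).

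MCT4 transcripts outweighed MCT1 transcripts per length in every library. The Slc16a3 share of their sum was 65.7% in cKO 2 (95% exact Clopper-Pearson interval 64.3% to 67.0%) and 89.3% in cKO 5 (88.7% to 89.8%), against 81.0% in control 1 (80.2% to 81.9%) and 87.4% in control 6 (86.8% to 88.0%). The per-kilobase ratio was 1.91 and 8.32 in cKO 2 and cKO 5, against 4.27 and 6.94 in control 1 and control 6. The genotype difference in the mean log2 ratio was -0.45 (exact permutation p = 1, two-sided), and 0.61 without cKO 2. Of 3 other transporters and partners tested, 1 had a positive and 2 a negative log2 fold change. The neuronal transporter MCT2, encoded by Slc16a7, had 8.95 and 26.1 CPM in cKO 2 and cKO 5, against 19.9 and 21.5 in control 1 and control 6. Slc16a7 was thus lowest in cKO 2, where the sum of excitatory neuron markers was highest, and highest in cKO 5, where that sum was lowest. The cells that supplied its reads were not tested. Slc16a8, which encodes the MCT3 of retinal epithelium, reached at most 2.44 CPM, in control 6, and the sodium-coupled carriers Slc5a8 and Slc5a12 were not listed.

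Bsg (ENSMUSG00000023175, chromosome 10, 79704491 to 79711969, plus strand) encodes basigin, the membrane glycoprotein that MCT1 and MCT4 need to reach the cell surface, and it ran opposite to Slc16a3. It had 2001 CPM in cKO 2 (34644 reads) and 867 in cKO 5 (16729 reads), against 2260.5 in control 1 (39497 reads) and 1040.7 in control 6 (17935 reads). Each genotype thus held 1 high and 1 low library. The means were 1434 ± 802 CPM in cKO and 1651 ± 862 CPM in control (SD, n = 2 each), a log2 fold change of -0.31 ± 0.63 (SE) with a 95% interval of -2.01 to 1.39. It was -0.79 without cKO 2, 0.06 without cKO 5 and 0.22 without control 1. The high libraries were those with the most endothelial marker RNA, and summed pericyte markers (5 genes, none at 0) were 3185 and 257 CPM in cKO 2 and cKO 5, against 3511 and 687 in control 1 and control 6. The part of these cells in the Bsg values was not tested. The authors' deposited table called Bsg lower in cKO 5 than in control 1 (log2 fold change -1.38), where 26.0% of all genes were called lower, and made no other call for it. Emb, which encodes the alternative partner embigin, had 2.02 and 5.85 CPM in cKO 2 and cKO 5, against 4.64 and 3.31 in control 1 and control 6.

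**Figure D3:**
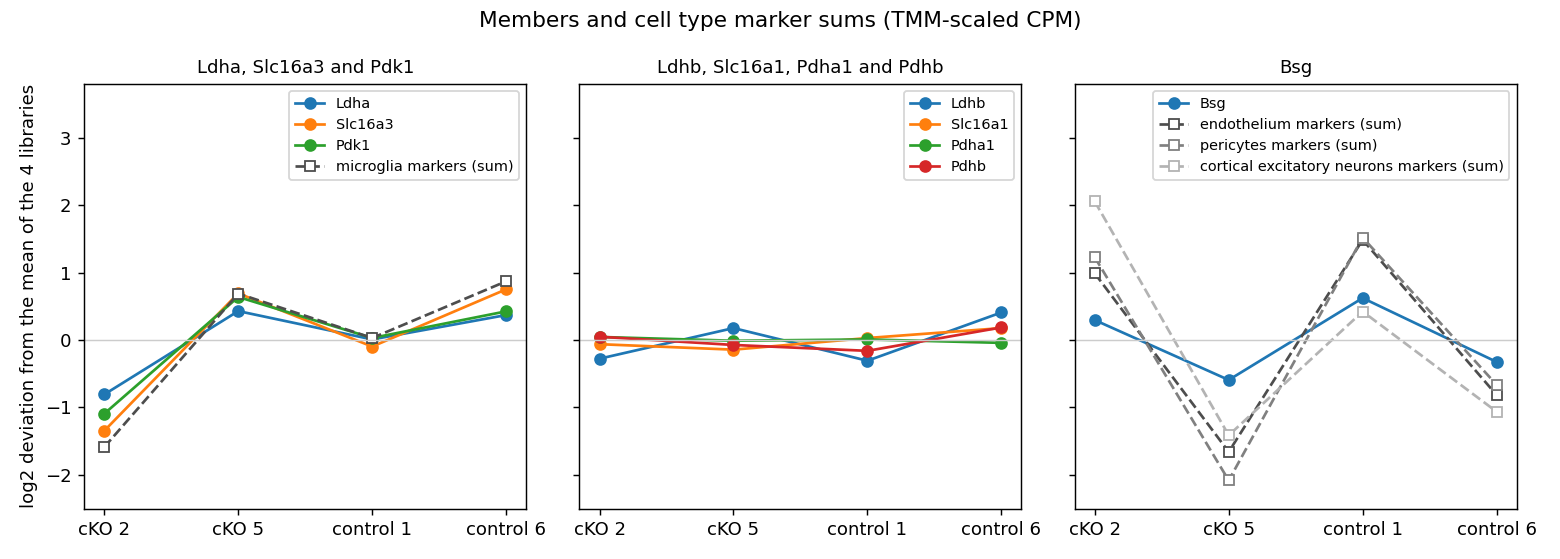
Each gene's log2 deviation from its mean over the 4 libraries (y axis; x axis, library; solid lines, genes; dashed lines, summed markers of a cell type), on TMM-scaled CPM. The left panel shows Ldha, Slc16a3, Pdk1 and the microglia markers lowest in cKO 2. The middle panel shows smaller deviations of Ldhb, Slc16a1, Pdha1 and Pdhb. The right panel shows Bsg above its mean in cKO 2 and control 1, as were the endothelial, pericyte and cortical excitatory neuron markers.

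Pdk1 (ENSMUSG00000006494, chromosome 2, 71873224 to 71903858, plus strand) encodes a kinase that inactivates the pyruvate dehydrogenase complex and so spares pyruvate for lactate. It had 89.4 CPM in cKO 2 and 239 in cKO 5, against 176 in control 1 and 205 in control 6, so the cKO libraries held both the lowest and the highest value. The means were 164 ± 106 CPM in cKO and 191 ± 20.9 CPM in control (SD, n = 2 each), and the log2 fold change was -0.22 ± 0.66 (SE) with a 95% interval of -2.0004 to 1.55. It was 0.43 without cKO 2 and -1.35 without cKO 5. The authors' deposited table called Pdk1 lower in cKO 2 than in control 6 (log2 fold change -1.20). That comparison of 1 library with 1 library called 13.4% of all genes lower. Against control 1 the deposited log2 fold change was -0.98, without a call. Over the 4 deposited comparisons, which share libraries, 0 members were called higher in cKO, where the authors' deposited table called 20% (cKO 2 against control 1), 33.7% (cKO 2 against control 6), 8.79% (cKO 5 against control 1) and 9.23% (cKO 5 against control 6) of genes higher. In the last of these 11.4% of genes and no member were called lower.

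Ldha, Slc16a3 and Pdk1 shared their 2 lowest libraries. On TMM-scaled CPM these 3 of the 8 genes (37.5%) were lowest in cKO 2 and next lowest in control 1, as 23.0% of all genes tested were, and 33.2% of all genes were lowest in cKO 2. The microglia marker sum had the same 2 lowest libraries. Pdk1 differed from Ldha by a root mean square of 0.18 (log2) over the libraries and from Slc16a3 by 0.22, while Ldha and Slc16a3 differed by 0.36. Ldha and Pdk1 were highest in cKO 5 and Slc16a3 in control 6. Per 1000 CPM of microglia markers, Ldha had 88.3 and 43.0 CPM in cKO 2 and cKO 5, against 50.7 and 36.4 in control 1 and control 6. On the same scale Pdk1 had 9.65 and 6.64 CPM in cKO 2 and cKO 5, against 6.88 and 5.05 in control 1 and control 6. Unlike the plain CPM, these scaled values of Ldha and Pdk1 were highest in cKO 2, as were those of every other member. Library cKO 2 had the lowest microglia marker sum, by which all these values are divided. The genes most like Ldha in pattern were Hmox2, Golga4 and Sh2b3 (root mean square differences 0.012, 0.022 and 0.025, log2), and those most like Ldhb were Mphosph6, Mrpl44 and Pkmyt1 (0.039, 0.044 and 0.044).

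Pdha1 and Pdhb encode the alpha and beta subunits of the first enzyme of the pyruvate dehydrogenase complex, and for neither was a difference between genotypes detected beyond the spread of the libraries. Pdha1 (ENSMUSG00000031299, chromosome X, 160122209 to 160138413, minus strand) had 80.9 CPM in cKO 2 and 62.4 in cKO 5, against 71.0 in control 1 and 60.9 in control 6. Its means were 71.6 ± 13.1 CPM in cKO and 65.9 ± 7.18 CPM in control (SD, n = 2 each), and it was the single member with a positive log2 fold change, 0.03 ± 0.28 (SE; 95% interval -0.72 to 0.79), and 0.03 also without cKO 2. Exons of Map3k15 on the other strand overlap it, and with strandedness not stated their reads cannot be told apart. Map3k15 was low, with 4 and 69 reads in cKO 2 and cKO 5, against 20 and 45 reads in control 1 and control 6. Pdhb (ENSMUSG00000021748, chromosome 14, 8165991 to 8172992, minus strand, a position of the files that differs from GENCODE M21) had 266 CPM in cKO 2 and 196 in cKO 5, against 207 in control 1 and 234 in control 6. Its log2 fold change was -0.03 ± 0.33 (SE; 95% interval -0.92 to 0.85), and with library totals alone in place of TMM it was 0.066. Without cKO 2 it was -0.07.

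The kinase stood in different proportion to its substrate in different libraries. The per-kilobase ratio of Pdk1 to Pdha1 was 0.530 in cKO 2 and 1.84 in cKO 5, against 1.19 in control 1 and 1.62 in control 6, a difference between genotypes of -0.49 in mean log2 ratio (exact permutation p = 1, two-sided) and of 0.41 without cKO 2. With the longest principal transcript as the length, the ratio of Pdha1 to Pdhb lay between 0.138 and 0.182. Per kilobase of exon, this ratio of subunits of the same enzyme stayed between 0.269 and 0.355. It was 0.315 and 0.330 in cKO 2 and cKO 5, against 0.355 and 0.269 in control 1 and control 6, a difference of 0.06 in mean log2 ratio (exact permutation p = 1, two-sided) and of 0.09 without cKO 2.

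Ordered by mean level per kilobase of exon over the 4 libraries, the members ran from Bsg (850.2 CPM per kilobase) through Ldha (388), Ldhb (185), Slc16a3 (97.7), Pdhb (58.4) and Pdk1 (22.8) to Slc16a1 (18.97) and Pdha1 (18.4). On this length, neighbours down to Slc16a3 did not overlap over the libraries. The ranges of Pdk1, Slc16a1 and Pdha1 over the libraries overlapped, as did those of Slc16a3 and Pdhb. With the longest principal transcript as the length, Pdhb (149) came before Slc16a3 (120) and Pdha1 (24.2) before Slc16a1 (18.97). Bsg stayed first by its mean on that length (1011, against 727 for Ldha). Ldha was nevertheless above Bsg in cKO 5 (874 against 568) and in control 6 (838 against 682). The other kinases were lower per kilobase of exon than Pdk1 in each library. Pdk3, the closest, had 9.34 and 18.7 CPM per kilobase in cKO 2 and cKO 5, against 17.2 and 17.5 in control 1 and control 6, where Pdk1 had 11.5 and 30.7 against 22.6 and 26.4.

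**Figure D4:**
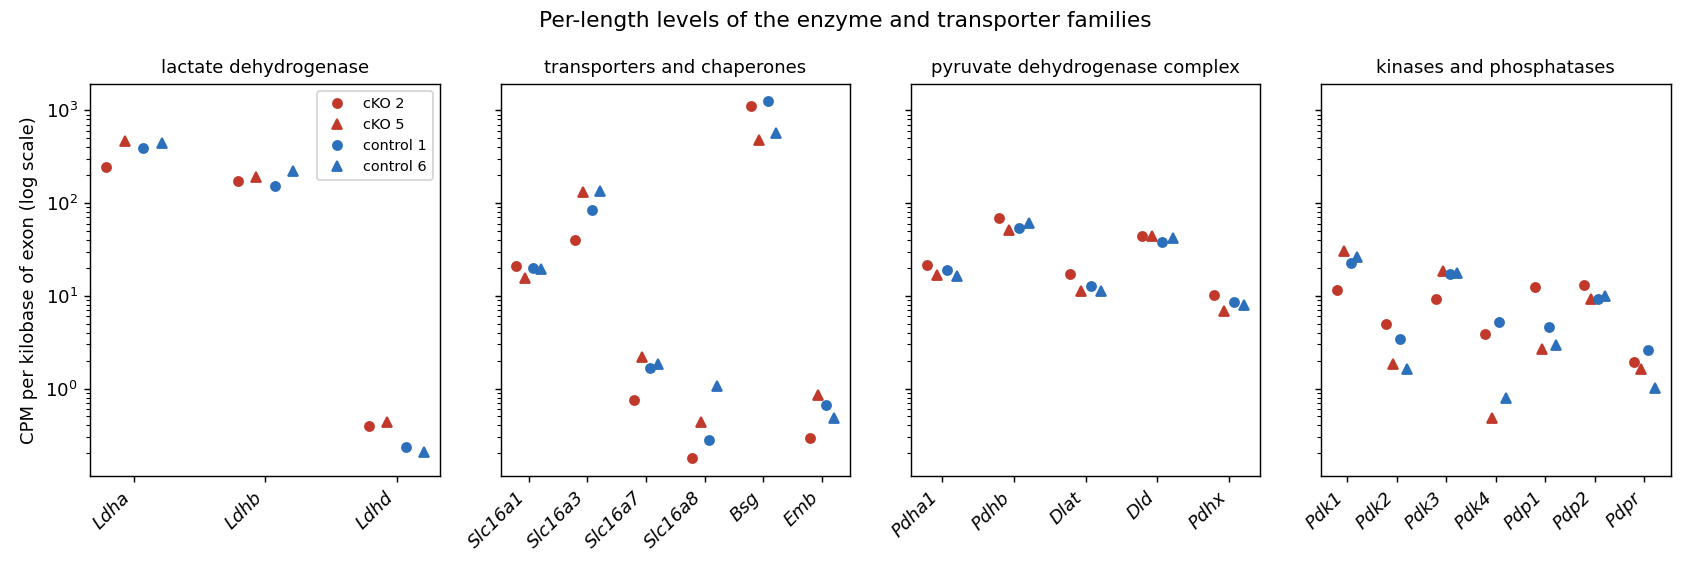
Level per kilobase of exon for each gene of 4 families (y axis, CPM per kilobase, log scale; red, cKO; blue, control; circles, cKO 2 and control 1; triangles, cKO 5 and control 6). Ldha lies above Ldhb, Slc16a3 above Slc16a1 and Pdk1 above the other kinases in every library.

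Neighbouring genes of the pathway were examined from lists of 46 genes, 10 of them HIF-responsive genes, and 40 could be tested. Of these 40, 13 had a positive and 27 a negative log2 fold change, with a median of -0.14, and 0 were past the threshold or at an unadjusted p under 0.05 in edgeR. Of all genes tested, 47.2% were negative. The 3 tested pyruvate dehydrogenase subunits beyond the members had 2 positive and 1 negative values. Dld, the shared dihydrolipoamide dehydrogenase, had 161 and 162 CPM in cKO 2 and cKO 5, against 139 and 153 in control 1 and control 6. Dlat, the acetyltransferase core, had 84.3 and 55.5 CPM in cKO 2 and cKO 5, against 62.9 and 54.7 in control 1 and control 6. Of 6 other kinases and phosphatases, 3 were positive and 3 negative. The most abundant were Pdp2, a phosphatase that reactivates the complex, with 75.0 and 52.2 CPM in cKO 2 and cKO 5 against 52.0 and 56.5 in the controls, and Pdk3, with 23.9 and 47.9 CPM against 44.1 and 44.8 in the controls.

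Of 8 genes of pyruvate supply and entry, 3 were positive and 5 negative. Pkm, the pyruvate kinase gene, had 1727 and 2348 CPM in cKO 2 and cKO 5, against 2082 and 2517 in control 1 and control 6. Pcx, whose product carboxylates pyruvate to oxaloacetate, had 122 and 15.6 CPM in cKO 2 and cKO 5, against 119 and 20.9 in control 1 and control 6, high in cKO 2 and control 1, as Bsg was. Of 9 genes of the shuttles that carry reducing equivalents of NADH into mitochondria, 2 were positive and 7 negative. Mdh1, the cytosolic malate dehydrogenase, had 454 and 495 CPM in cKO 2 and cKO 5, against 438 and 478 in control 1 and control 6. Slc25a11, the oxoglutarate carrier, had 219 and 243 CPM in cKO 2 and cKO 5, against 234 and 244 in the controls. Hcar1, the lactate receptor gene, had 4.27 and 1.66 CPM in cKO 2 and cKO 5, against 9.56 and 1.51 in control 1 and control 6.

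**Figure D5:**
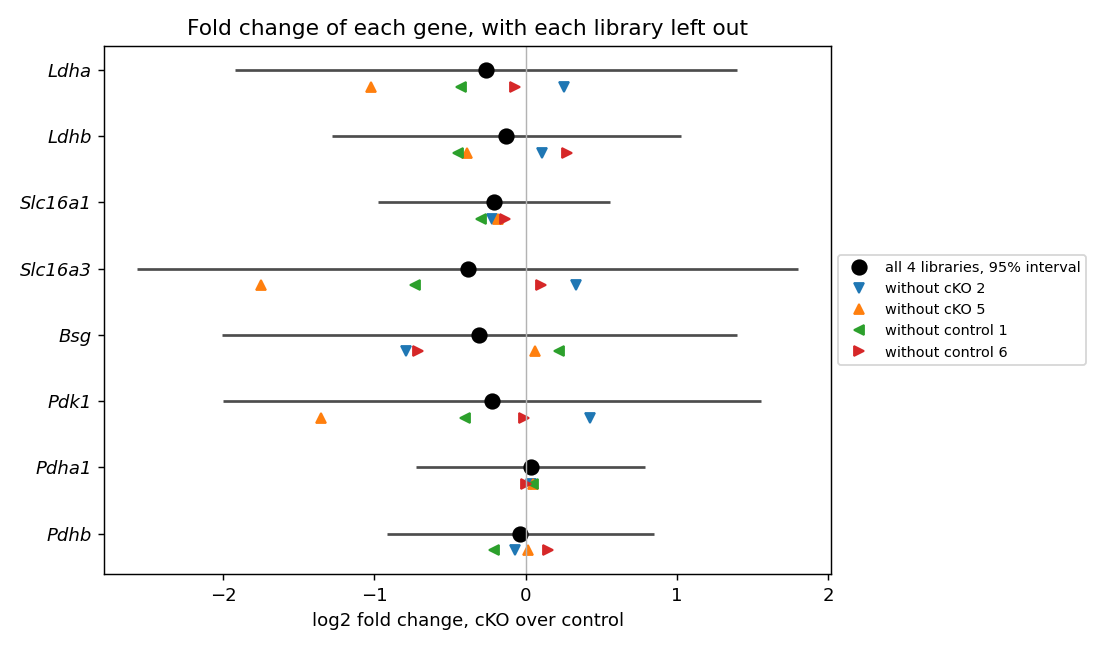
Log2 fold change of each gene, cKO over control (x axis; black points with 95% intervals, all 4 libraries in edgeR; triangles, the same fit with 1 library left out). Every interval includes 0, and the triangles of Ldha, Ldhb, Slc16a3, Pdk1, Bsg and Pdhb fall on both sides of 0, while those of Slc16a1 and Pdha1 stay on one side.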

How the data were processed

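Per the submitters' processing notes, Bowtie2 2.2.3, TopHat2 2.0.12 and HTSeq 0.6.0 were used with mm9, in roles not given. Gene positions in the tables nevertheless matched GRCm38 (GENCODE M21, 90.3% identical). The authors deposited 4 tables of 1 cKO and 1 control library each, with raw counts, CPM (deposited counts per 1000000 reads of the library), a fold change (deposited ratio of those values), its log2 (deposited log2 fold change), and a p-value and adjusted p-value from a test not given in the sources used here. Counts of a library were identical in its 2 tables. Libraries were grouped by title.

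Genotypes were compared on counts with edgeR 4.0.16 (R 4.3.3): quasi-likelihood test, TMM, filterByExpr with a minimum count of 10, Benjamini-Hochberg over 15951 genes. SEs were taken as the log2 fold change over the square root of F. Alternatives used DESeq2 1.42.0, limma 3.58.1, other scalings, no filter, a sex term, and each library left out. Ratios used exact permutation tests (scipy 1.17.1). Likeness used log2(TMM-scaled CPM + 0.5). The text names all 8 members, the 2 most abundant genes of each neighbouring list and the 3 genes most like Ldha, Ldhb, Slc16a1 and Slc16a3. Other genes it names (the rest of the lactate dehydrogenases and transporters, and genes given beside a result) were chosen after their values were seen. Exon lengths are unions of GENCODE exons. Members and lists were chosen with earlier results of these data known.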

Additional observations from a re-analysis of the deposited data

How the results depend on the processing

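No gene passed the threshold under any alternative run, and no alternative moved a member past it. With DESeq2 size factors, DESeq2, limma-voom and no filter on low counts, all 8 members kept their direction. With library totals alone, Pdhb turned to 0.066 (log2). Scaling on the 12 microglia markers put the median of all genes at 1.25, against 0.03 with TMM, and on that scale the log2 fold changes were 0.59 for Ldha, 1.07 for Ldhb, 1.09 for Slc16a1, 0.25 for Slc16a3, 1.08 for Bsg, 0.45 for Pdk1 and 1.302 for Pdhb. Pdha1 (1.29) and Pdhb lay above that median and the other 6 below it. Leaving out each library in turn gave log2 fold changes of -1.02 to 0.26 for Ldha, -0.45 to 0.27 for Ldhb, -1.75 to 0.33 for Slc16a3, -0.79 to 0.22 for Bsg, -1.35 to 0.43 for Pdk1 and -0.21 to 0.15 for Pdhb. Those of Slc16a1 (-0.29 to -0.14) and Pdha1 (0.00 to 0.05) kept their sign. For Pdhb the sign turned without cKO 5 (0.01) and without control 6 (0.15). The log2 ratio differences ran from -0.11 to 0.67 for Ldhb to Ldha, -1.51 to 0.61 for Slc16a3 to Slc16a1, -1.39 to 0.41 for Pdk1 to Pdha1 and -0.14 to 0.26 for Pdha1 to Pdhb, the last turning without control 6. Raw reads and principal transcript length (chosen after seeing the data) could not change these differences, because a fixed length cancels between genotypes. Adding 0.5 reads to counts this large left every ratio's direction as it was, and could hardly do otherwise. The cause of the turns was not tested. Genes at an unadjusted p under 0.05 numbered 583 without cKO 2, 1784 without cKO 5, 40 without control 1 and 10 without control 6, against 49 with all libraries. Each of these fits left 1 genotype with a single library, assumed to vary like the pair of the other genotype, which alone supplied the spread. Replicate numbers gave no pairs of libraries, because the genotypes share none. A block by sex was possible, since each genotype held 1 library with Xist reads and 1 with Ddx3y reads. With sex, read from Xist and Ddx3y, as a term (a fit with 1 residual degree of freedom, added after seeing the data), no gene passed, 1 had an unadjusted p under 0.05, and all 8 members kept their direction, with Slc16a3 at -0.65 and Pdk1 at -0.46. With 2 libraries per genotype, the spread between libraries and not the read depth sets the width of the intervals.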

Other observations

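Of the 10 HIF-responsive genes among the 46 neighbouring genes counted above, 9 were tested, 1 with a positive and 8 with a negative log2 fold change, and 0 were past the threshold in edgeR (median -0.33, against 0.03 over all genes). Of all genes tested, 47.2% were negative. The gene not tested was Vegfa, which fell below the filter on low counts. It had 25 and 8 reads in cKO 2 and cKO 5, against 3 and 4 reads in control 1 and control 6. Both cKO libraries thus lay higher, as they did for 8.33% of all genes tested on TMM-scaled CPM. The control counts were at or near the floor of 3 reads, and the count in cKO 5 was low too. The HIF-responsive genes did not share one arrangement over the libraries. Slc2a1, the glucose transporter gene of brain vessels, had 1529 and 477 CPM in cKO 2 and cKO 5, against 2278 and 612 in control 1 and control 6, high in the same libraries as Bsg. Bnip3, a mitophagy gene, had 128 and 276 CPM in cKO 2 and cKO 5, against 187 and 362 in control 1 and control 6, lowest in cKO 2 as Ldha was. After these values were seen, Bsg was also matched for likeness, and the genes nearest to it were Rapgef5, Ctnna1 and Ppp1r2 (root mean square differences 0.050, 0.053 and 0.055, log2).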
